A study of Mus musculus with 12 samples.

Results

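The early secretory pathway carries new proteins into the endoplasmic reticulum (ER) and on to the Golgi. It is represented here by 57 genes of the 14089 measured in cultured mouse islets. The genes were taken by symbol: every symbol that starts with Sec, Srp or Tmed followed by a digit, Srpr and Srprb, the translocon-associated genes Ssr1 to Ssr4, and the coatomer genes named Cop with a subunit letter, Cope and Arcn1. The rule uses names and no measured value. By role they comprise 9 genes of the signal recognition particle and its receptor, 6 of the Sec61 translocon, 4 of the translocon-associated protein complex, 2 signal peptidase subunits, 11 of the COPII coat and ER exit sites, 9 of the COPI coat, 10 p24 cargo receptors and 3 genes of the Sec22 family. The remaining 3, Sec14l1, Sec14l4 and Sec23ip, were kept apart from these roles. The Sec14-like genes encode lipid-transfer proteins. Sec23ip encodes a phospholipase-like protein that binds Sec23, and it is not counted with the COPII genes here.

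Islets of C57BL/6J mice, isolated with collagenase, were cultured for 24 hours under 4 conditions with 3 libraries each. The combination islets received a cytokine mixture together with 10 µM ML351, an inhibitor of 12/15-lipoxygenase. The cytokine islets received the mixture alone, made of IL-1β, TNF-α and IFN-γ, whose final concentrations were 5, 10 and 100 ng/ml in that order. The ML351 islets received 10 µM ML351 alone, and the vehicle islets received neither agent. Whole islets hold β, α and δ cells with some vascular, immune and exocrine cells, so a value is an average over cell types. Per-library values follow the replicate numbers of the labels, which are 1, 2 and 4 for the combination, 1, 3 and 4 for cytokines, 1, 2 and 3 for ML351 and 1, 2 and 4 for vehicle.

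Secreted and membrane proteins are recognised by the signal recognition particle as their signal sequence leaves the ribosome, are docked at the ER by its receptor, and pass through the Sec61 channel, where signal peptidase removes the signal sequence. Cargo then leaves the ER in vesicles with a COPII coat, and COPI vesicles return receptors and escaped ER proteins from the Golgi, with p24 proteins packed into both. A β cell sends its insulin precursor along this route as its main product, and the translocon-associated protein complex assists entry of that precursor.

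Library totals ran from 20208286 to 27193026 counts. Values are given as CPM, counts relative to the library total scaled by edgeR's TMM factor, and a gene is called higher or lower at an edgeR adjusted p below 0.05 over all 14089 genes. No label states that replicate libraries are from different mice or cultures, and the p-values therefore reflect sample-to-sample spread that could be technical only. The summed CPM of 8 β cell markers was 257000 to 321500 with the combination, 290000 to 342800 with cytokines, 284800 to 335900 with ML351 and 330900 to 377300 with vehicle. Ins1, Ins2 and Iapp, the hormone genes among them, made up 99.58% to 99.97% of that sum across the libraries. The other 5 summed to 78.6 to 84.4 CPM with the combination and 85.8 to 87.6 CPM with cytokines, against 1166 to 1415 CPM with ML351 and 1222 to 1378 CPM with vehicle. Of the 8 genes 6 fell in each comparison of cytokines, with log2 fold changes for cytokines against vehicle of -5.03 (Ucn3), -4.63 (Mafa), -3.95 (Slc2a2), -3.35 (Pdx1), -1.03 (Nkx6-1) and -0.60 (Ins1), and edgeR adjusted p from 4.01e-14 to 5.45e-05. Ins2 and Iapp were not called. Markers of other cell types moved as well. The 6 α cell markers summed to 679.5 to 1600 CPM with the combination and 724 to 1355 CPM with cytokines, against 27470 to 40130 CPM with ML351 and 34940 to 39120 CPM with vehicle. The 15 measured acinar markers, of 19 listed, summed to 921 to 1348 CPM with the combination, 39.5 to 828 with cytokines, 197 to 340.2 with ML351 and 236 to 659 with vehicle. The 7 endothelial markers summed to 8.79 to 12.3, 15.1 to 20.4, 88.2 to 90.3 and 73.5 to 81.6 CPM in the same order. The 3 δ cell markers summed to 140.3 to 204 CPM with the combination and 91.7 to 136 CPM with cytokines, against 1463 to 1513 CPM with ML351 and 1375 to 1438 CPM with vehicle. Higher with cytokines were the sums of the 5 measured ductal markers, of 6 listed, at 1689 to 1827, 1739 to 2285, 829.7 to 993 and 772 to 935 CPM, and of the 10 macrophage markers, at 299 to 306, 329 to 348, 161 to 182 and 212 to 219 CPM, again in that order. The 8 stellate and fibroblast markers summed to 29 to 138 CPM with the combination, 44 to 70.5 with cytokines, 100.5 to 242 with ML351 and 108 to 340.3 with vehicle. Single markers could differ from their sum. Of the macrophage markers 6 were called higher and 1 lower with cytokines against vehicle, and 8 and 1 with the combination against ML351. These counts were 1 and 6, then 1 and 4, for stellate and fibroblast markers, and 0 and 1, then 10 and 1, for acinar markers. No measured marker of these lists was at 0 in any library. In bulk RNA, fewer cells of a type and less RNA per cell cannot be told apart. The part of these shifts in the results was not tested. Acinar RNA was fitted as a covariate, but its sums with the combination lay above all those with cytokines and with ML351. For those comparisons the fit cannot separate acinar RNA from treatment.

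Cytokines lowered many of the 57 genes and raised few. Together the members took 0.945% to 0.98% of all counts with the combination and 0.908% to 0.935% with cytokines, against 1.21% to 1.32% with ML351 and 1.12% to 1.18% with vehicle, so the groups with and without cytokines did not overlap. In cytokines against vehicle 28 members (49.1%) were lower and 10 (17.5%) higher, where 37.2% of all genes were lower and 35.3% higher. The share of members called in any direction was 66.7%, against 72.5% of all genes. The median member had a log2 fold change of -0.16, against -0.02 over all genes. In the combination against ML351, which uses the other 6 libraries, 30 members (52.6%) were lower and 9 (15.8%) higher, where 36.4% of all genes were lower and 35.2% higher. Calls in any direction took 68.4% of members and 71.5% of all genes, and the medians were -0.21 for members and -0.02 for all genes. Members are well expressed, and among the 3580 genes with a mean CPM in the interquartile range of the members 33.4% were lower and 51.5% higher in cytokines against vehicle, and 33.8% lower and 50.4% higher in the combination against ML351. Acinar RNA as a covariate left 26 members lower and 10 higher in cytokines against vehicle, and 28 lower and 6 higher in the combination against ML351. In the second comparison the acinar sums of the groups did not overlap, so that fit cannot separate acinar RNA from treatment.

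Both comparisons, which share no library, can be set side by side. Called lower in both were 26 members (45.6%, against 33.1% of all genes) and called higher in both were 9 (15.8%, against 32.1%). Called in neither were 15 (26.3%, against 21.2%). The direction was the same for 51 of the 57 (89.5%), close to the 92.6% of all genes. A decrease of more than 2-fold was called for 10 members (17.5%) in each comparison, where 17.3% and 16.2% of all genes fell as far, so that share is near the background. They were the same 10 genes (17.5%, against 14.3% of all genes in both): Sec61a1, Sec61b, Ssr1, Sec16b, Sec24d, Sec22c, Tmed3, Tmed6, Tmed8 and Sec14l4. No member rose by more than 2-fold in either comparison, where 14.9% and 14.4% of all genes did. CPM of the groups compared did not overlap for 43 members with cytokines against vehicle (75.4%, where 76.6% of all genes did not overlap) and for 41 with the combination against ML351 (71.9%, against 74%), shares close to the background. By direction, 29 of the 57 members lay below and 14 above in the first comparison, where 39.4% and 37.2% of all genes did. In the second 31 of the 57 lay below and 10 above, where 37.6% and 36.4% of all genes did. In each comparison the share below was larger, and the share above smaller, among members than among all genes.

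**Figure D1:**
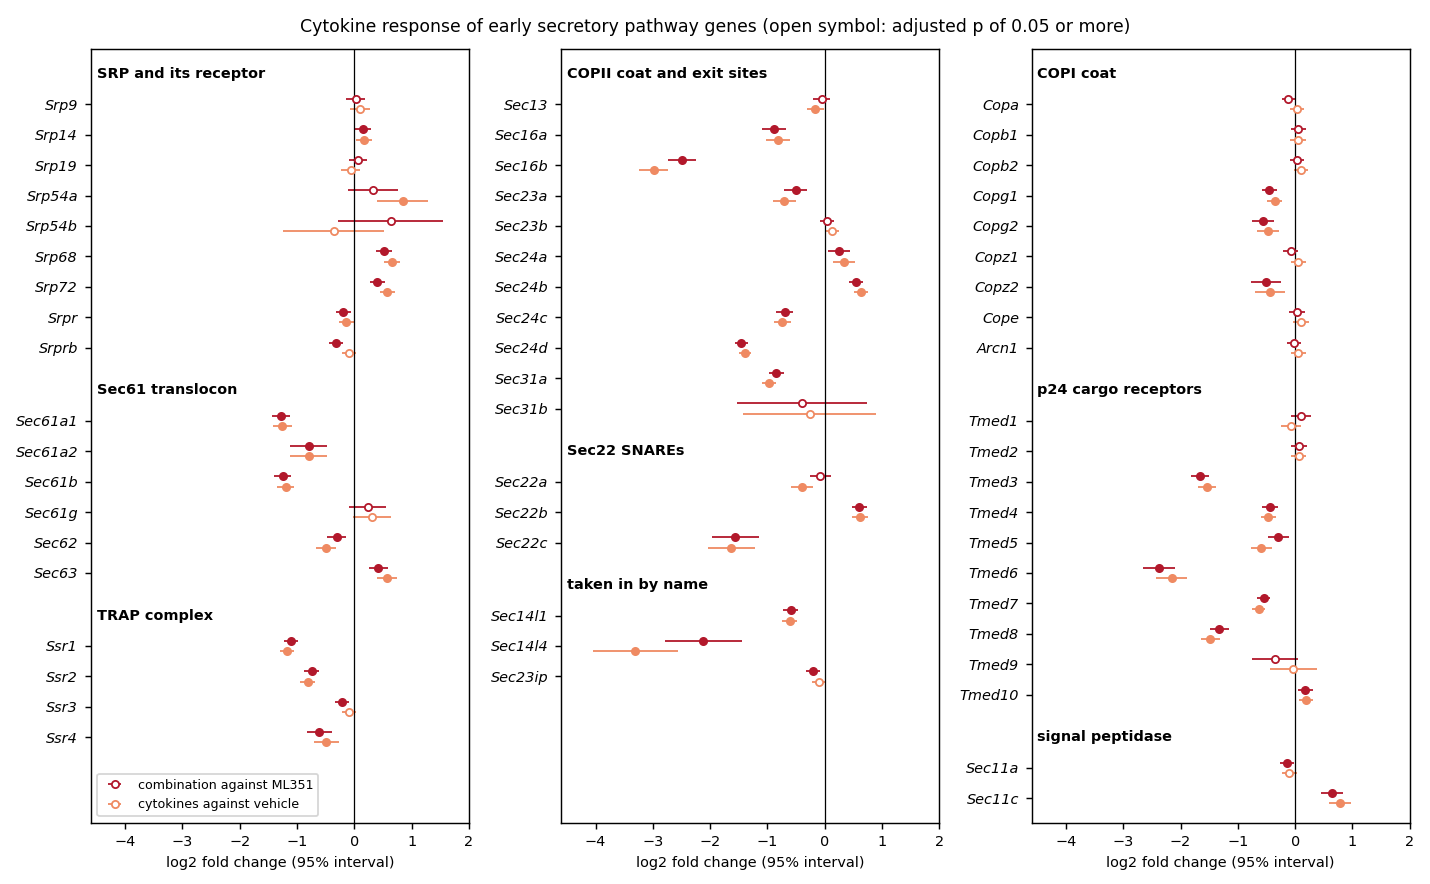
Log2 fold change (x axis, with its 95% interval) of each of the 57 genes, by role, for the combination against ML351 (dark red) and for cytokines against vehicle (orange), with filled points at an edgeR adjusted p below 0.05. Decreases of more than 2-fold appear among Sec61, TRAP, COPII, Sec22 and p24 genes, while 6 of the 9 COPI genes lie near 0 in both comparisons.

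Within the signal recognition particle itself, the subunits that passed the test were higher with cytokines. Srp68 and Srp72, which form a heterodimer in the particle's signal-binding domain, rose in both comparisons. Srp68 (chromosome 11, 116245166 to 116274217, GRCm38) had 174, 185 and 203 CPM with the combination, 193, 199 and 201 CPM with cytokines, 133, 138 and 119.9 CPM with ML351 and 124, 123 and 127 CPM with vehicle. All 6 libraries with cytokines lay above all 6 without, and the difference was called for cytokines against vehicle (log2 fold change 0.66, SE 0.065, edgeR adjusted p = 7.16e-08) and for the combination against ML351 (0.52, SE 0.065, edgeR adjusted p = 1.45e-06). Srp72 had 152, 144 and 158 CPM with the combination, 151, 156 and 169 CPM with cytokines, 118, 116 and 111 CPM with ML351 and 110.5, 108 and 100.5 CPM with vehicle, again with no overlap. Its log2 fold changes were 0.58 for cytokines against vehicle and 0.40 for the combination against ML351 (edgeR adjusted p = 1.82e-07 and 1.5e-05).

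The Alu-domain subunits, which slow translation until docking, moved little. Srp14 was called higher by 0.17 and 0.16 on the log2 scale (edgeR adjusted p = 0.0352 for cytokines against vehicle and 0.0477 for the combination against ML351). Both calls were marginal. The first had an adjusted p of 0.0681 to 0.133 without any 1 of 4 libraries (cytokines replicates 3 and 4, vehicle replicates 1 and 2), and the second of 0.0513 to 0.183 without any 1 of 8 (combination replicates 1 and 4, cytokines replicates 3 and 4, ML351 replicates 1 and 2, vehicle replicates 1 and 2). The first was also lost with upper-quartile factors, library totals alone, totals without Ins1, Ins2 and Gcg or a minimum of 5 CPM in 3 libraries (adjusted p 0.0561 to 0.561), and the second with upper-quartile factors, library totals alone, totals without Ins1, Ins2 and Gcg, a minimum of 5 CPM in 3 libraries, the acinar covariate or the compared groups alone (0.0677 to 0.63). With upper-quartile factors, which shift the median of all genes by -0.12 in both comparisons, both log2 fold changes of Srp14 were 0.04, and with library totals alone they were 0.10 and 0.08. Its partner Srp9 was not called, with 95% intervals of -0.07 to 0.27 and -0.15 to 0.19, nor was Srp19, an assembly subunit, with intervals of -0.22 to 0.10 and -0.10 to 0.22 in the same order, although upper-quartile factors gave a call of lower for Srp19 in cytokines against vehicle (adjusted p 0.04). Srp54a and Srp54b are near-identical copies of the GTPase subunit that binds the signal sequence, so reads may be split between them and their values are uncertain. Srp54a had 4.74, 3.49 and 5.8 CPM with the combination, 4.84, 4.91 and 5.44 CPM with cytokines, 4.25, 3.53 and 3.35 CPM with ML351 and 2.25, 3.22 and 2.99 CPM with vehicle. It rose with cytokines against vehicle (log2 fold change 0.84, SE 0.21, edgeR adjusted p = 0.00173), and its interval for the combination against ML351 was -0.10 to 0.77 (edgeR adjusted p = 0.159, or 0.0344 without combination replicate 2). Srp54b had 7 to 20 counts in a library, and its intervals of -1.24 to 0.52 and -0.28 to 1.55 were wide.

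The receptor that docks the particle at the ER went the other way by a small amount. Srpr, the GTPase subunit that meets Srp54, had 552, 547 and 596 CPM with the combination, 519.8, 559.5 and 546 CPM with cytokines, 615, 696 and 628 CPM with ML351 and 631, 573 and 586 CPM with vehicle. It was called lower, with log2 fold changes of -0.14 for cytokines against vehicle and -0.19 for the combination against ML351 (edgeR adjusted p = 0.0482 and 0.00911). The first call was lost without any 1 of 8 libraries (combination replicates 1 and 4, cytokines replicates 1, 3 and 4, ML351 replicate 1, vehicle replicates 1 and 4), with an adjusted p of 0.0506 to 0.211, and with DESeq2, RLE factors or the acinar covariate (0.0718 to 0.097), and the second without ML351 replicate 2 (0.0603). Srprb, its membrane anchor, fell with the combination against ML351 (log2 fold change -0.33, SE 0.058, edgeR adjusted p = 8.11e-05) and had an interval of -0.21 to 0.03 for cytokines against vehicle, where it was called lower with upper-quartile factors, library totals alone or a minimum of 5 CPM in 3 libraries (adjusted p 0.00231 to 0.0387). Of the exon bases of Srprb 20.7% overlap Gm20425, and these libraries do not record strand, so reads of overlapping or antisense genes cannot be told apart. Exon overlap with another gene touched 20 members and exceeded 10% of exon bases in 7: Srprb, Sec61a2 (with Nudt5), Copg2 (with Mest), Srp9, Tmed1 (with Dnm2), Ssr2 and Sec62. Summed over the 9 genes, CPM were 1309 ± 72.4 with the combination, 1299 ± 43.3 with cytokines, 1319.5 ± 52.9 with ML351 and 1221 ± 40.6 with vehicle (SD, n = 3 each).

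At the Sec61 translocon, the α and β subunit genes fell by more than 2-fold in both comparisons. Sec61a1 (chromosome 6, 88503579 to 88518905, GRCm38) encodes the pore-forming α subunit. It had 306, 306 and 262 CPM with the combination, 304, 279 and 255 CPM with cytokines, 706, 735 and 673 CPM with ML351 and 707, 667 and 627 CPM with vehicle. The lowest library without cytokines lay at about 2 times the highest with them, and the log2 fold change was -1.25 for cytokines against vehicle and -1.27 for the combination against ML351 (SE 0.075 for each, edgeR adjusted p = 1.03e-10 and 9.08e-11). Sec61b, the β subunit, had 85.4, 76.1 and 90.9 CPM with the combination, 75.7, 87.8 and 87.9 CPM with cytokines, 198, 194 and 209 CPM with ML351 and 198, 184 and 195 CPM with vehicle. It fell, with log2 fold changes of -1.20 and -1.25 in the same comparisons (edgeR adjusted p = 1.34e-10 and 8.23e-11). The γ subunit gene Sec61g did not follow. It had 85.2, 63.6 and 92.4 CPM with the combination, 68.2, 79 and 92.2 CPM with cytokines, 66.3, 63.9 and 75.1 CPM with ML351 and 65.2, 57.1 and 70.8 CPM with vehicle, the groups overlapped, and its 95% intervals were -0.02 to 0.64 and -0.10 to 0.56. Without cytokines replicate 1 or combination replicate 2 it was called higher in cytokines against vehicle (edgeR adjusted p = 0.0183 to 0.0301), and without combination replicate 2 also in the combination against ML351 (0.0102). The first comparison was called with DESeq2 or the compared groups alone too (adjusted p 0.0182 to 0.0219). Per kilobase of exon, vehicle islets had 151 ± 6.07 CPM of Sec61b, 99.1 ± 5.97 of Sec61a1 and 26.1 ± 2.79 of Sec61g, while cytokine islets had 65.9 ± 5.5, 41.5 ± 3.67 and 32.4 ± 4.87 (SD, n = 3 each). Here and below the length is that of all annotated exons of a gene merged, which can exceed its transcripts. Ranks between genes by this measure therefore depend on the annotation.

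The other α isoform and the accessory proteins split. Sec61a2, a minor α isoform here at 2.25 ± 0.244 CPM per kilobase with vehicle, was called lower, with log2 fold changes of -0.80 and -0.80 in the 2 comparisons (edgeR adjusted p = 0.000166 and 0.000143). Sec62 and Sec63 act together at the channel for short and weakly targeted precursors, and Sec63 also brings the chaperone BiP to the lumenal side. Sec63 had 168, 157 and 198 CPM with the combination, 162, 175 and 183 CPM with cytokines, 135, 130.1 and 126 CPM with ML351 and 119.9, 107 and 122 CPM with vehicle, with every library with cytokines above every library without. It rose by 0.57 and 0.42 (edgeR adjusted p = 5.54e-06 and 0.000162). Sec62 had 50.2, 53.4 and 52.9 CPM with the combination, 46.4, 41.9 and 49.2 CPM with cytokines, 56.4, 70.1 and 67.6 CPM with ML351 and 66.7, 64.8 and 61.9 CPM with vehicle, and fell, with log2 fold changes of -0.49 and -0.31 (edgeR adjusted p = 3.41e-05 and 0.00233). Over the 6 translocon genes CPM summed to 689 ± 21.5 with the combination and 668 ± 5.56 with cytokines, against 1181 ± 21.5 with ML351 and 1115 ± 46.8 with vehicle (SD, n = 3 each).

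The translocon-associated protein (TRAP) complex, a tetramer beside Sec61, fell unevenly. Ssr1, the α subunit (chromosome 13, 37966605 to 37994217, GRCm38), had 124, 119 and 122 CPM with the combination, 102, 106 and 109 CPM with cytokines, 275, 258 and 249 CPM with ML351 and 246, 229 and 239 CPM with vehicle. Its log2 fold change was -1.17 with cytokines against vehicle and -1.10 with the combination against ML351 (edgeR adjusted p = 5.61e-12 and 1.27e-11). Ssr2, the β subunit, had 163, 172 and 184 CPM with the combination, 143, 148 and 152 CPM with cytokines, 308, 291 and 271 CPM with ML351 and 263, 251 and 267 CPM with vehicle, and log2 fold changes of -0.82 and -0.75 (edgeR adjusted p = 2.05e-09 and 6.83e-09). For both genes the 6 libraries with cytokines lay below the 6 without. Ssr4, the δ subunit, fell, with log2 fold changes of -0.49 and -0.61 (edgeR adjusted p = 0.000645 and 0.000101). Ssr3, the γ subunit, had 325, 304 and 339 CPM with the combination, 290.3, 312 and 328 CPM with cytokines, 380.3, 367 and 376 CPM with ML351 and 352, 325 and 315 CPM with vehicle. It fell by 0.21 with the combination against ML351 (edgeR adjusted p = 0.00464), and for cytokines against vehicle its interval was -0.22 to 0.04. That interval excludes a decrease of the size seen for Ssr1. With upper-quartile factors, library totals alone or a minimum of 5 CPM in 3 libraries, Ssr3 was called lower there too (adjusted p 0.00434 to 0.0483).

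Signal peptidase has alternative catalytic subunits, and they differed. Sec11c (chromosome 18, 65800515 to 65817684, GRCm38) had 233, 200.3 and 277 CPM with the combination, 227, 243 and 236 CPM with cytokines, 159, 143 and 152 CPM with ML351 and 142, 130.2 and 138 CPM with vehicle. All libraries with cytokines were above all without, with log2 fold changes of 0.79 for cytokines against vehicle and 0.65 for the combination against ML351 (SE 0.089 and 0.089, edgeR adjusted p = 9.03e-07 and 8.04e-06). This was the largest rise among the members called in both comparisons. Sec11a had 83.7, 76 and 85.9 CPM with the combination, 84, 83.1 and 81.1 CPM with cytokines, 89.1, 87.6 and 95.1 CPM with ML351 and 88.4, 87.4 and 90.8 CPM with vehicle. Its intervals were -0.23 to 0.02 and -0.27 to -0.02, and only the second was called (edgeR adjusted p = 0.0364). That call was lost without any 1 of 5 libraries (combination replicates 1 and 2, cytokines replicate 1, ML351 replicates 1 and 3), with an adjusted p of 0.0567 to 0.233, and with DESeq2, RLE factors, the acinar covariate or the compared groups alone (0.0584 to 0.197). The first was called with upper-quartile factors, library totals alone or a minimum of 5 CPM in 3 libraries (0.00298 to 0.0379).

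**Figure D2:**
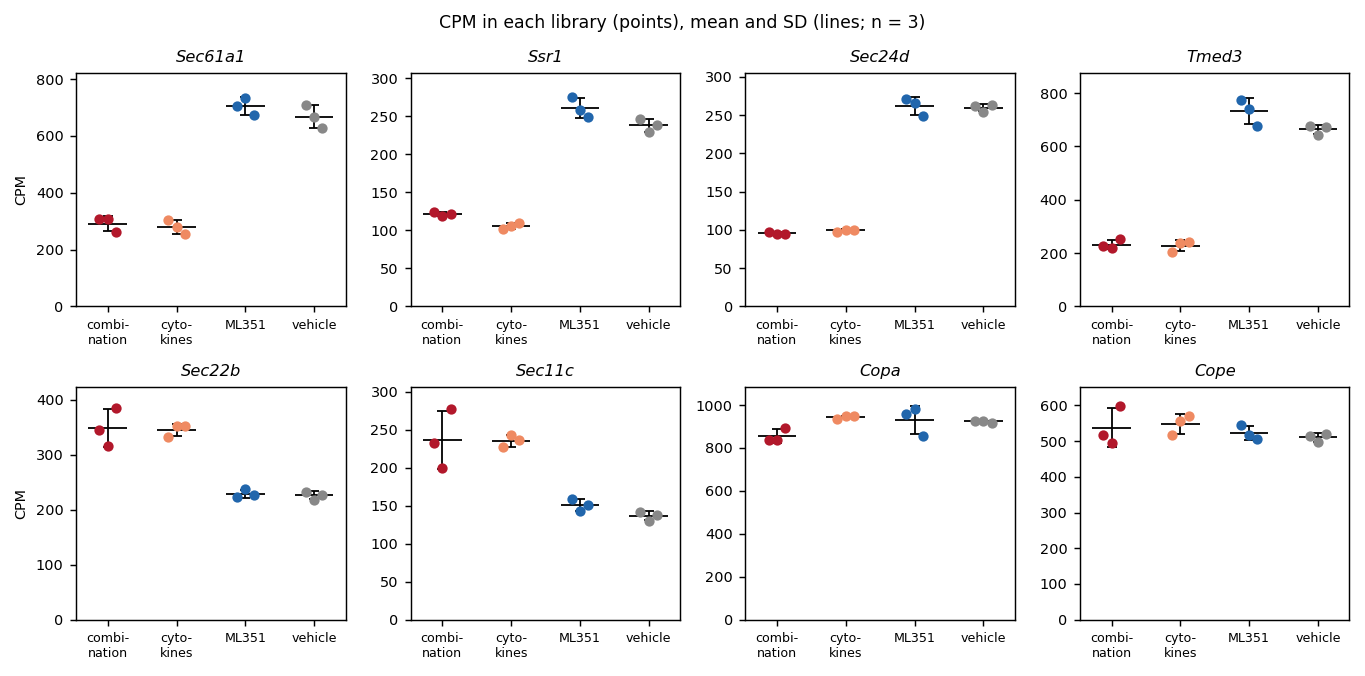
CPM in each library of 8 members (points), with the mean and SD of each group (lines, n = 3), for the combination, cytokines, ML351 and vehicle. Sec61a1, Ssr1, Sec24d and Tmed3 are lower and Sec22b and Sec11c higher in all 6 libraries with cytokines, while groups overlap for Cope across all conditions.

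COPII coats form when Sec23 and Sec24 load onto the ER membrane and Sec13 and Sec31 build the outer cage, at exit sites organised by Sec16. Of these 11 genes 7 fell and 2 rose with cytokines against vehicle, and 6 fell and 2 rose with the combination against ML351. Of all genes 37.2% fell and 35.3% rose in the first comparison, and 36.4% and 35.2% in the second. Sec16b, the shorter Sec16 paralog, showed the largest decrease of any member, other than the sparsely counted Sec14l4 with cytokines against vehicle. It had 8.8, 8.52 and 8.91 CPM with the combination, 5.93, 7.11 and 4.58 CPM with cytokines, 52.4, 50.3 and 44.9 CPM with ML351 and 47.4, 50.2 and 42.5 CPM with vehicle. The ranges were far apart, and the log2 fold change was -2.99 for cytokines against vehicle and -2.49 for the combination against ML351 (SE 0.12 and 0.12, edgeR adjusted p = 5.39e-13 and 3.71e-12). Sec16a, the main scaffold, fell, with log2 fold changes of -0.82 and -0.89 (edgeR adjusted p = 2.36e-06 and 1.01e-06).

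Cargo is selected by Sec24, which has 4 isoforms in mammals, and these isoforms went in opposite directions. Sec24d had 97, 94.9 and 94.5 CPM with the combination, 97.8, 100.4 and 99.5 CPM with cytokines, 271, 266 and 249 CPM with ML351 and 262, 254 and 263 CPM with vehicle. Spread within groups was small, and it fell, with log2 fold changes of -1.39 and -1.46 (SE 0.052 for each, edgeR adjusted p = 1.84e-13 and 1.09e-13). Sec24c had 157, 151 and 139.8 CPM with cytokines, against 249, 247 and 253 CPM with vehicle (log2 fold change -0.74), and 166, 159.5 and 148 CPM with the combination, against 275, 261 and 230.5 CPM with ML351 (-0.70, edgeR adjusted p = 3.14e-08 and 7.2e-08). Sec24b had 71.4, 74.7 and 70.4 CPM with the combination, 72.6, 70.6 and 69.9 CPM with cytokines, 51.6, 50 and 47.2 CPM with ML351 and 46.5, 47.4 and 44.1 CPM with vehicle. It rose by 0.63 and 0.54, with no overlap between libraries with and without cytokines (edgeR adjusted p = 4.24e-08 and 2.76e-07). Sec24a, the least abundant isoform, rose by 0.34 and 0.25 (edgeR adjusted p = 0.00405 and 0.025), but without ML351 replicate 3 the second adjusted p was 0.066, and with upper-quartile factors, library totals alone or the acinar covariate it was 0.0822 to 0.217. The second log2 fold change was 0.13 with upper-quartile factors. Per kilobase of exon the isoforms stood, in vehicle islets, at 41.1 ± 0.752 (Sec24d), 39.7 ± 0.446 (Sec24c), 7.64 ± 0.28 (Sec24b) and 1.16 ± 0.1 CPM (Sec24a). In cytokine islets they stood at 15.7 ± 0.214, 23.7 ± 1.39, 11.8 ± 0.235 and 1.47 ± 0.0941 CPM. Sec24d was the highest of the 4 with vehicle, by little more than the spread, and Sec24c was the highest with cytokines.

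Among the partners, Sec23a fell and Sec23b did not. These paralogs encode the GTPase-activating subunit. Sec23a had 30.6, 38.8 and 32.5 CPM with the combination, 30.8, 27.4 and 32.5 CPM with cytokines, 42.7, 49.8 and 52.3 CPM with ML351 and 47.5, 49.5 and 50.7 CPM with vehicle and log2 fold changes of -0.70 and -0.51 (edgeR adjusted p = 3.64e-06 and 0.000129). Sec23b, the more abundant one, had 338, 336 and 377 CPM with the combination, 339.7, 335 and 342 CPM with cytokines, 361, 348 and 316 CPM with ML351 and 318, 305 and 306 CPM with vehicle. Its intervals were 0.0046 to 0.26 and -0.09 to 0.16, and without any 1 of 4 libraries (combination replicates 1 and 4, ML351 replicates 1 and 3) it was called higher with cytokines against vehicle (edgeR adjusted p = 0.0165 to 0.0371), as it was with DESeq2, RLE factors or the compared groups alone (0.00604 to 0.0306). In the outer cage, Sec31a fell, with 213, 216 and 211 CPM with the combination, 199, 207 and 195 CPM with cytokines, 381, 412 and 354 CPM with ML351 and 397, 376 and 408 CPM with vehicle (log2 fold changes -0.97 and -0.84, edgeR adjusted p = 1.22e-10 and 8.86e-10). Its cage partner Sec13, which also belongs to the nuclear pore, moved little: it was called lower with cytokines against vehicle (log2 fold change -0.16, edgeR adjusted p = 0.0441), and its interval for the combination against ML351 was -0.20 to 0.09. Without any 1 of 7 libraries (combination replicates 1 and 4, cytokines replicates 1 and 4, ML351 replicate 1, vehicle replicates 1 and 4) the adjusted p of Sec13 was 0.0507 to 0.24, and with DESeq2, RLE factors or the acinar covariate it was 0.0684 to 0.0866. The second comparison was called lower with upper-quartile factors (0.0314). Sec31b had 5 to 21 counts in a library and wide intervals, -1.42 to 0.89 and -1.54 to 0.73.

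Promoters of several coat genes carry the sequence TGACGTGG, which the unfolded protein response factors ATF6 and XBP1 are known to bind. RefSeq promoters on GRCm38.p6, covering 250 bases before to 50 after the start, were available for 48 of the 57 members. TGACGTGG was searched on both strands. It was found in 5 of the 48 genes (10.4%), against 1.09% of the 10692 measured genes with a promoter and 0.714% of all 27025. The 5 genes all belong to a vesicle coat or its exit sites: Sec16b, Sec24d, Sec23a, Copb1 and Copb2. The first 3 fell with cytokines against vehicle and the COPI genes Copb1 and Copb2 were not called. Shown are the 250 bases before the RefSeq start of the genes with the deepest falls, Sec16b and Sec24d, and of Copb1 as one that was not called. Each is written 5′ to 3′ on the strand of its gene, with the match in capitals (TGACGTGG, or CCACGTCA where it lies on the opposite strand).
Sec16b, chr1:157506546-157506795, plus strand, match starting at -44: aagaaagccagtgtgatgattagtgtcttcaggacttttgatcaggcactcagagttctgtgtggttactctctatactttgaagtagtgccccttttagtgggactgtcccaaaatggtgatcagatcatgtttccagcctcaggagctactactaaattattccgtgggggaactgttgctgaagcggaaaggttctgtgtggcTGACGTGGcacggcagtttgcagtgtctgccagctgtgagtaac
Sec24d, chr3:123267246-123267495, plus strand, match starting at -26: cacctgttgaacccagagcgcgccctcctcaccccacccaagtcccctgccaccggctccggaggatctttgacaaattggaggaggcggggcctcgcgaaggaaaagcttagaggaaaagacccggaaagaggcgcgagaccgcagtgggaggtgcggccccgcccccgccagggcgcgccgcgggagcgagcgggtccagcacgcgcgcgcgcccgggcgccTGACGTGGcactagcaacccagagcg
Copb1, chr7:114254681-114254930, minus strand, match starting at -28: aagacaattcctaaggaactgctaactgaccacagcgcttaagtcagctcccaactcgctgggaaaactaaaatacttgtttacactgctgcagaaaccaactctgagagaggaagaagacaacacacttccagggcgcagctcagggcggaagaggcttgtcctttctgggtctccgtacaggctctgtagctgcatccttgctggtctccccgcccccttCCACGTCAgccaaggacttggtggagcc
Match positions are counted from the RefSeq start. In the GENCODE annotation used for gene coordinates here, Sec16b, Sec24d and Copb1 start earlier, at 157506728, 123267455 and 114254711. Their matches therefore lie inside the GENCODE genes. The match lay at -7 in Copb2 and at 7 in Sec23a. Its core GACGTG, which overlaps it, was in 16 of the 48 members (33.3%), against 10.7% of measured genes. Of those 16 genes 11 were lower, 2 higher and 3 not called with cytokines against vehicle, where the 48 comprised 24 lower, 8 higher and 16 not called. A CCAAT box was in 20 members (41.7%), against 42.2% of measured genes. The full ER stress response element, CCAAT followed after 9 bases by CCACG, was in 0 members and 0.159% of measured genes, and the interferon-stimulated response element, GAAA repeated after 2 bases, in 4 (8.33%), against 3.82%. A match is a description of the letters and not a site shown to be bound.

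The p24 proteins, small cargo receptors that cycle between ER and Golgi, held 3 of the 10 decreases of more than 2-fold. Of 10 genes 6 fell and 1 rose in each comparison. Of all genes 37.2% fell and 35.3% rose with cytokines against vehicle, and 36.4% and 35.2% with the combination against ML351. Decreases of more than 2-fold were called for 17.3% and 16.2% of all genes in these comparisons. Tmed3 (chromosome 9, 89699206 to 89705068, GRCm38) was the highest member per kilobase of exon in vehicle islets, at 233 ± 6.23 CPM, against 80.2 ± 6.84 in cytokine islets. It had 225, 218 and 251 CPM with the combination, 206, 238 and 241 CPM with cytokines, 775, 742 and 678 CPM with ML351 and 675, 644 and 674 CPM with vehicle. The lowest library without cytokines was above 2 times the highest with them, with log2 fold changes of -1.54 for cytokines against vehicle and -1.66 for the combination against ML351 (edgeR adjusted p = 4.1e-12 and 1.69e-12). Tmed6, a p24 protein of restricted tissue range, had 4.64, 4.72 and 5.39 CPM with the combination, 4.43, 5.84 and 6.9 CPM with cytokines, 23.4, 27.4 and 25.5 CPM with ML351 and 25.6, 25.7 and 25 CPM with vehicle, and fell, with log2 fold changes of -2.16 and -2.37 (edgeR adjusted p = 1.09e-10 and 4.2e-11). Tmed8, a more distant relative, had 36.4, 34.2 and 36.9 CPM with the combination, 37.4, 35 and 32.5 CPM with cytokines, 89.4, 94.3 and 85 CPM with ML351 and 86.7, 108 and 98.7 CPM with vehicle, and fell, with log2 fold changes of -1.48 and -1.32 (edgeR adjusted p = 2.78e-11 and 1.3e-10).

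Smaller decreases were called for Tmed7 (-0.64 and -0.55), Tmed5 (-0.59 and -0.29) and Tmed4 (-0.47 and -0.44), with edgeR adjusted p from 7.03e-09 to 0.00534. The second call of Tmed5 had an adjusted p of 0.0545 with the acinar covariate. The p24 proteins that most others need as partners did not fall. Tmed10 had 334, 330 and 357 CPM with the combination, 309.5, 320.3 and 332 CPM with cytokines, 299, 318 and 284 CPM with ML351 and 298, 268 and 280.5 CPM with vehicle, and was called higher by 0.18 and 0.18 (edgeR adjusted p = 0.0107 and 0.0123). Without vehicle replicate 2 the first adjusted p was 0.0585 and without ML351 replicate 3 the second was 0.0572. With upper-quartile scaling its log2 fold change was 0.06 in both comparisons, with neither called. The second call was also lost with library totals alone or the acinar covariate, the adjusted p over these alternatives being 0.0908 to 0.318. Tmed2, its usual partner, was not called, with 95% intervals of -0.08 to 0.20 and -0.08 to 0.20, nor was Tmed1, with -0.25 to 0.11 and -0.08 to 0.28, although upper-quartile factors gave it a call of lower with cytokines against vehicle (adjusted p 0.0473). Tmed9 had 189.7, 104 and 180.3 CPM with the combination, 174, 181 and 186 CPM with cytokines, 207, 199.5 and 198 CPM with ML351 and 192, 177 and 183 CPM with vehicle. Combination replicate 2 stood apart from the other two of its group, and the intervals were -0.44 to 0.38 and -0.76 to 0.06. Without combination replicate 1 Tmed9 was called lower with the combination against ML351 (edgeR adjusted p = 0.0353), as it was with upper-quartile factors, library totals alone or limma-voom (0.026 to 0.0383). Summed CPM of the 10 genes was 1379 ± 98.3 with the combination and 1343 ± 56.1 with cytokines, against 2092 ± 64.8 with ML351 and 1987 ± 52.9 with vehicle (SD, n = 3 each).

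Sec22b, a SNARE that drives fusion of vesicles between ER and Golgi, rose. It had 345, 316 and 384 CPM with the combination, 332, 352 and 352 CPM with cytokines, 223, 238 and 226 CPM with ML351 and 233, 218 and 227 CPM with vehicle. No library with cytokines overlapped one without, and the log2 fold changes were 0.61 and 0.61 (SE 0.065 for each, edgeR adjusted p = 1.8e-07 and 2.13e-07). Its relatives Sec22a and Sec22c lack the fusion motif. Sec22c fell, with 8.31, 7.24 and 5.49 CPM with the combination, 6.41, 7.65 and 5.64 CPM with cytokines, 21.8, 18.8 and 21.6 CPM with ML351 and 23.7, 22.8 and 14.5 CPM with vehicle (log2 fold changes -1.63 and -1.56, edgeR adjusted p = 2.34e-06 and 3.68e-06). Sec22a fell by 0.40 with cytokines against vehicle (edgeR adjusted p = 0.000703), with an interval of -0.26 to 0.11 for the combination against ML351.

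Most COPI genes were not called, and Copa was near the threshold in 1 comparison. Coatomer, a complex of subunits recruited to the membrane together, had 6 of its 9 genes called in neither comparison. Of all genes 21.2% were called in neither. Copa, the α subunit, had 835, 838 and 894 CPM with the combination, 936, 948 and 948 CPM with cytokines, 957, 979.8 and 855 CPM with ML351 and 926, 926 and 918 CPM with vehicle. Its log2 fold change was 0.03 for cytokines against vehicle (95% interval -0.09 to 0.15) and -0.12 for the combination against ML351 (-0.24 to -0.003, edgeR adjusted p = 0.0617). The cytokine libraries lay just above the vehicle libraries, and combination and ML351 libraries overlapped. The second was called lower without ML351 replicate 3 or combination replicate 4 (edgeR adjusted p = 0.00597 to 0.0309), and also with upper-quartile factors, library totals alone, totals without Ins1, Ins2 and Gcg, a minimum of 5 CPM in 3 libraries or limma-voom (adjusted p 0.000495 to 0.0439), so whether Copa fell there depends on the setting. Cope, the ε subunit, had 517, 495 and 599 CPM with the combination, 516, 556 and 569.9 CPM with cytokines, 546, 518 and 506 CPM with ML351 and 515, 496 and 521 CPM with vehicle, with overlapping groups and intervals of -0.04 to 0.24 and -0.10 to 0.18. For the other uncalled subunits the intervals for cytokines against vehicle were -0.09 to 0.19 (Copb1, β), -0.02 to 0.23 (Copb2, β′), -0.07 to 0.18 (Arcn1, δ) and -0.08 to 0.18 (Copz1, ζ). For the combination against ML351 they were -0.08 to 0.19, -0.10 to 0.15, -0.15 to 0.10 and -0.21 to 0.05 in the same order. All intervals of these 6 genes lay within 0.5 of 0 on the log2 scale. Without combination replicate 4, Copb2 and Cope were called higher with cytokines against vehicle (edgeR adjusted p = 0.0309 and 0.046). The call of Copb2 was also gained with DESeq2 or the compared groups alone (adjusted p 0.0207 to 0.0417) and that of Cope with the compared groups alone (0.0319). In the combination against ML351 Arcn1 was called lower with upper-quartile factors (adjusted p 0.0367) and Copz1 with upper-quartile factors or library totals alone (0.00621 to 0.014).

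The 3 COPI genes that fell were both γ isoforms and the minor ζ isoform. Copg1 had 461, 458 and 500 CPM with the combination, 520, 542 and 488 CPM with cytokines, 656, 693 and 592 CPM with ML351 and 677, 669.9 and 641 CPM with vehicle, and fell, with log2 fold changes of -0.36 and -0.45 (edgeR adjusted p = 7.22e-05 and 6.12e-06). Copg2 and Copz2 fell, with log2 fold changes of -0.47 and -0.56 for Copg2 and -0.45 and -0.51 for Copz2, and edgeR adjusted p from 2.97e-05 to 0.00433. In every case the groups compared did not overlap. The 9 COPI genes summed to 3301 ± 224 CPM with the combination and 3461 ± 64.9 with cytokines, against 3564 ± 179.7 with ML351 and 3512 ± 44.1 with vehicle (SD, n = 3 each). The 11 COPII genes summed to 1268 ± 24 and 1207 ± 19.2, against 1834 ± 111 and 1773 ± 21.9, in the same order.

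Of the 3 genes kept apart from the roles, Sec14l4 had, on few reads, the largest log2 fold change of all 57 with cytokines against vehicle. With the combination against ML351 it came after Sec16b and Tmed6. It had 0.733, 1.15 and 0.674 CPM with the combination, 0.242, 0.736 and 0.252 CPM with cytokines, 3.48, 4.12 and 3.62 CPM with ML351 and 3.86, 3.97 and 4.28 CPM with vehicle, which rest on 5 to 113 counts in a library. It fell by 3.30 with cytokines against vehicle and by 2.12 with the combination against ML351 (SE 0.35 and 0.32, edgeR adjusted p = 1.71e-07 and 1.19e-05). Without cytokines replicate 3 the first log2 fold change was -4.0. Sec14l1 fell, with log2 fold changes of -0.61 and -0.59 (edgeR adjusted p = 1.31e-07 and 2.14e-07). Sec23ip fell by 0.20 with the combination against ML351 (edgeR adjusted p = 0.00605, or 0.051 without ML351 replicate 1) and had an interval of -0.23 to 0.02 for cytokines against vehicle, where it was called lower with upper-quartile factors, library totals alone or a minimum of 5 CPM in 3 libraries (adjusted p 0.0023 to 0.0361).

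The ratio between paralogs of a subunit differed with cytokines in 11 of 13 pairs examined. For 13 pairs the log2 ratio of their CPM (with 0.5 CPM added to each) was compared between the 6 libraries with and the 6 without cytokines, by a two-sided exact permutation test within each ML351 background. The test has 400 regroupings and cannot give a p below 0.005. The pairs were chosen with earlier results known, and the ratios use the same counts as the single-gene tests. Of the 13 pairs 11 passed after adjustment over the pairs. The share of other gene pairs that would pass was not computed, and with 72.5% of all genes called in cytokines against vehicle this count shows nothing particular to these pairs. Sec16a to Sec16b shifted most, with a mean log2 ratio of 3.71 with the combination, 4.17 with cytokines, 2.16 with ML351 and 2.09 with vehicle (difference 1.81, exact permutation p = 0.005, adjusted 0.00722). The same smallest p was reached for Tmed3 to Tmed1 (-1.62), Sec22b to Sec22a (0.84), Sec11c to Sec11a (0.83), Sec24d to Sec24c (-0.70), Sec23a to Sec23b (-0.68), Sec61a1 to Sec61a2 (-0.50), Copz1 to Copz2 (0.46) and Sec24a to Sec24b (-0.30). For these 9 pairs the libraries with and without cytokines did not overlap.

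Sec31a to Sec31b differed by -0.76 (exact permutation p = 0.01, adjusted 0.013), on the few reads of Sec31b, and Tmed7 to Tmed5 by -0.16 (p = 0.035, adjusted 0.0414, exact permutation), both with overlapping libraries. Copg1 to Copg2 differed by 0.10 (exact permutation p = 0.24, adjusted 0.24) and Tmed9 to Tmed4 by 0.24 (p = 0.115, adjusted 0.125, exact permutation), so a shift in these pairs was not detected. For Sec11c to Sec11a the mean log2 ratio was 1.52 with the combination and 1.5 with cytokines, against 0.74 with ML351 and 0.62 with vehicle.

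**Figure D3:**
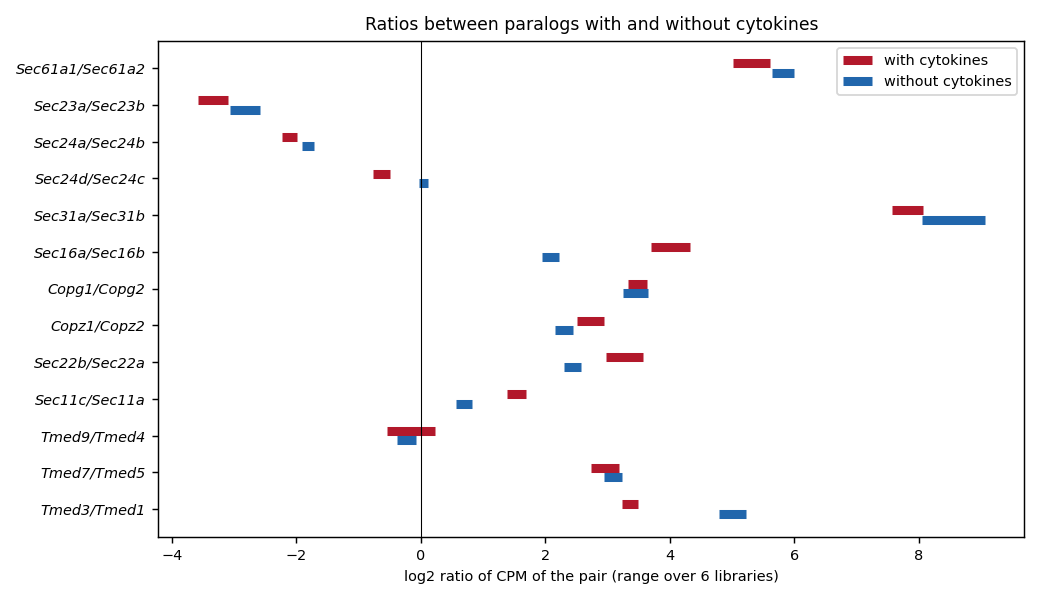
Range of the log2 ratio of CPM (x axis) over the 6 libraries with cytokines (red, upper bar) and the 6 without (blue, lower bar) for 13 paralog pairs. The bars are apart for 9 pairs, furthest for Sec16a to Sec16b and Tmed3 to Tmed1, and overlap for Copg1 to Copg2, Tmed9 to Tmed4, Tmed7 to Tmed5 and narrowly Sec31a to Sec31b.

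Genes that work beside the members are given here by list, to be read against the 35.3% of all genes higher and 37.2% lower with cytokines against vehicle, and 35.2% and 36.4% with the combination against ML351. Of 17 measured partners at the translocon (signal peptidase accessory subunits, the oligosaccharyltransferase and TRAM proteins) 14 fell and 2 rose with cytokines against vehicle, with a median log2 fold change of -0.86 beside -0.02 over all genes. Spcs3, a signal peptidase subunit, changed by -2.20, and the oligosaccharyltransferase genes Ostc and Rpn1 by -1.21 and -1.18 (edgeR adjusted p = 5.04e-15, 2.36e-12 and 2.24e-12). With the combination against ML351 15 of the 17 fell and 2 rose (median -0.80). The GET and EMC routes, which insert membrane proteins, had 8 of 17 genes higher and 6 lower in each comparison (medians -0.06 and 0.17), with Emc7 at 0.88 and Get4 at 0.79 for cytokines against vehicle (edgeR adjusted p = 2.97e-09 and 2.14e-09).

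Regulators of the coats were called in both directions, as all genes were. Of 10 COPII regulators 4 rose and 5 fell with cytokines against vehicle, and 5 and 4 with the combination against ML351. Mia3, which encodes the receptor TANGO1 for bulky cargo, changed by -0.86, and Ctage5 and Tbc1d20, a cargo receptor partner and a Rab1 regulator, by 0.64 and 0.71 (edgeR adjusted p = 5.39e-09, 2.88e-08 and 1.39e-07). Of 10 COPI regulators 5 rose and 5 fell with cytokines against vehicle, and 5 and 3 with the combination against ML351. Gbf1, the exchange factor that starts COPI assembly, was at -0.89, Arfgap1 at -0.62 and Bicd2, a motor adaptor, at 0.85 (edgeR adjusted p = 7.14e-09, 2.95e-07 and 4.42e-07).

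Of 17 other cargo receptors and retrieval genes 6 rose and 10 fell with cytokines against vehicle, and 4 and 10 with the combination against ML351 (medians -0.43 and -0.40). The lectin receptors Lman1 and Lman2 changed by -1.23 and -1.25, and Rer1, a retrieval receptor, by 1.63 (edgeR adjusted p = 2.58e-11, 7.25e-12 and 2.47e-13). Of 33 tethers and SNAREs 10 rose and 16 fell, and 10 and 18 with the combination against ML351 (medians -0.14 and -0.24). Bet1, which pairs with Sec22b in ER to Golgi fusion, was at -2.12 and the tether Uso1 at -0.87 (edgeR adjusted p = 1.15e-13 and 2.19e-09). The unfolded protein response list of 28 genes had 11 higher and 12 lower, and 10 and 13 with the combination against ML351. Ddit3 and Trib3, targets of the PERK branch, were at 4.69 and 3.19, and the folding enzyme gene Pdia4 at -1.08 (edgeR adjusted p = 3.21e-18, 3.32e-16 and 2.35e-11).

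ML351 alone changed no member by the test. With ML351 against vehicle 0 of 57 members were called by edgeR, where 0.0355% of all genes were (5 genes, 0.0142% higher and 0.0213% lower), and DESeq2 and limma-voom also called 0. At an unadjusted p below 0.05 edgeR had 8 of the 57 members higher and 0 lower, beside 693 higher and 572 lower among all 14089 genes. These were Ssr1, Ssr2, Ssr3, Srp9, Sec23b, Sec24a, Arcn1 and Tmed2, with log2 fold changes of 0.13 to 0.22. The smallest p was that of Ssr3 (0.18, 95% interval 0.05 to 0.31, edgeR adjusted p = 0.333). CPM did not overlap for 17 members (29.8%, where 15.9% of all genes did not overlap), of which 16 were above vehicle and 1, Srp54b, below, where 8.57% and 7.32% of all genes were.

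In the presence of cytokines ML351 gave 2 marginal calls, both upward. With the combination against cytokines Sec16b and Tmed5 (3.51% of members) were higher and none lower, where 0.646% of all genes were higher, 0.788% lower and 1.43% either. Sec16b had 8.8, 8.52 and 8.91 CPM with the combination, against 5.93, 7.11 and 4.58 CPM with cytokines, both far under the levels without cytokines (log2 fold change 0.57, SE 0.13, edgeR adjusted p = 0.042). Tmed5, a p24 protein, had 27, 25.3 and 22.9 CPM with the combination, against 20.2, 18.1 and 19.4 CPM with cytokines (log2 fold change 0.38, SE 0.087, edgeR adjusted p = 0.0432). Neither pair of groups overlapped. The call of Sec16b was lost without any 1 of 8 libraries (combination replicates 1, 2 and 4, cytokines replicates 1 and 4, ML351 replicate 2, vehicle replicates 1 and 2), with an edgeR adjusted p of 0.0542 to 0.129, and that of Tmed5 without any 1 of 9 (combination replicates 1 and 2, cytokines replicates 1, 3 and 4, ML351 replicate 1, vehicle replicates 1, 2 and 4), with 0.0523 to 0.148. At an unadjusted p below 0.05, 9 of the 57 members were higher and Copa was lower (-0.14, edgeR adjusted p = 0.225), beside 1097 higher and 1115 lower among all 14089 genes. CPM did not overlap for 12 members (21.1%), close to the 20.4% of all genes, with 10 above and 2 below, where 10.1% and 10.3% of all genes were.

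Averaged over both backgrounds, Ssr1 and Ssr2, subunits of the TRAP complex, were called higher with ML351, both marginally. They were the 2 members called of 57 (3.51%), where 0.667% of all genes were higher, 0.88% lower and 1.55% either. Their libraries, given above, were higher with ML351 than with vehicle and higher with the combination than with cytokines, without overlap in either background. The averaged log2 fold changes were 0.17 for Ssr1 (SE 0.039, edgeR adjusted p = 0.0463) and 0.19 for Ssr2 (SE 0.043, edgeR adjusted p = 0.0415). These changes are small beside the -1.17 and -0.82 with cytokines against vehicle. The other TRAP genes, Ssr3 and Ssr4, were not called, and Ssr4 had an averaged log2 fold change of -0.09. The call of Ssr1 held without 1 library of 12 only, that of ML351 replicate 3, and otherwise its edgeR adjusted p was 0.0598 to 0.124. That of Ssr2 was lost without any 1 of 10 (combination replicates 2 and 4, cytokines replicates 1, 3 and 4, ML351 replicates 1 and 2, vehicle replicates 1, 2 and 4), with 0.0585 to 0.0977. Sec16b was called without ML351 replicate 3 or cytokines replicate 3 (edgeR adjusted p = 0.0318 to 0.0487), and Tmed5 without combination replicate 4 (0.0492). With the acinar marker score as a covariate no member was called in either ML351 comparison with calls. For the combination against cytokines this fit cannot tell acinar RNA from treatment, as the acinar sums did not overlap. At an unadjusted p below 0.05, 12 of the 57 members were higher and 0 lower, beside 1287 higher and 1099 lower among all 14089 genes. Ssr1, Ssr2 and Tmed2 reached it in each background. The summed macrophage markers, given above, were lower and the summed δ cell markers higher with ML351 than with vehicle, and likewise with the combination than with cytokines, without overlap, and their part in these results was not tested.

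**Figure D4:**
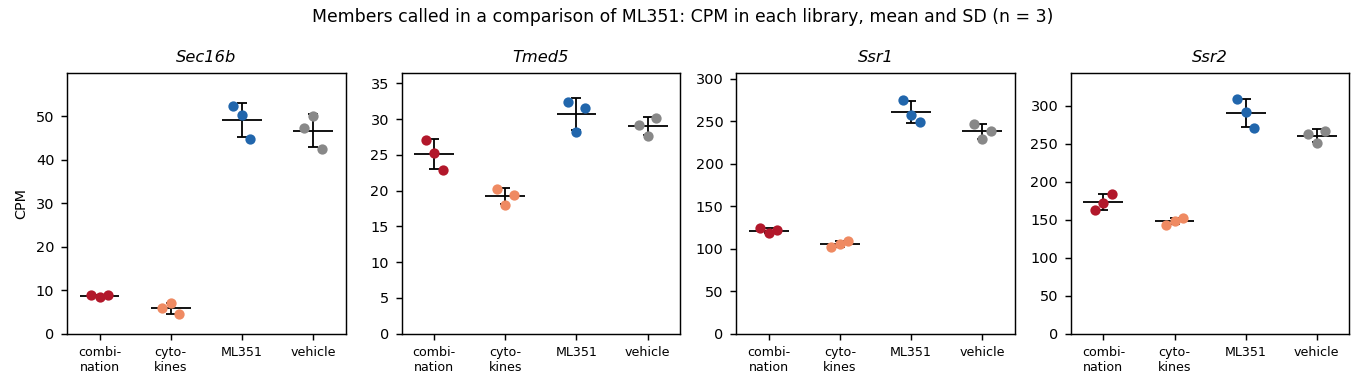
CPM in each library (points) with the mean and SD of each group (lines, n = 3) for Sec16b, Tmed5, Ssr1 and Ssr2, in the combination, cytokines, ML351 and vehicle. Combination libraries lie above cytokine libraries for all 4 genes, and each of the 4 is lower with cytokines whether or not ML351 was present.

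A test of whether ML351 altered the cytokine response itself called 0 members by edgeR, where 0.0071% of all genes (1 gene) was called. The 95% interval of this interaction lay within 0.5 of 0 on the log2 scale for 46 members, with a median half-width of 0.208 over the 57. At an unadjusted p below 0.05 stood 5 of the 57 members, beside 1160 of all 14089 genes, so the share of members was close to the background. Sec16b had the smallest p, with an interaction of 0.50 (95% interval 0.15 to 0.85, edgeR adjusted p = 0.402). The others were Srprb (-0.24), Sec22a (0.32), Sec14l4 (1.19) and Tmed5 (0.30), with edgeR adjusted p from 0.453 to 0.525.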

How the data were processed

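RNA-seq libraries of mouse islets were made, per the labels' protocols, with a non-stranded SMARTSeq v4 kit. The deposited values are raw counts per gene symbol, 1 column per library, not normalized by the authors. STAR, featureCounts, Subread, FastQC and DESeq2 and the mouse build mm10 appear in the submitters' processing notes. For tool versions and the counting annotation, no source used here gives any. The 57 genes were matched to GENCODE coordinates on GRCm38, the assembly of mm10.

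Counts of all 12 libraries were fitted in 1 model with edgeR 4.0.16 in R 4.3.3 (TMM factors, filterByExpr by group, which removed 0 genes, robust quasi-likelihood F-test), with Benjamini-Hochberg adjustment over 14089 genes per contrast. The steps were tested on simulated data. DESeq2 1.42.0, limma-voom (limma 3.58.1), other scaling factors and filters, a replicate block, an acinar score, the compared groups alone and leaving out each library were alternatives. SE is the log2 fold change over the square root of F. Ratios between paralogs were tested by exact permutation. No 2 libraries matched within sampling noise. The members and lists were chosen with earlier results of these data known, and every member is accounted for. Named in the other lists were the genes with the smallest p, up to 3 a list.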

Additional observations from a re-analysis of the deposited data

How the results depend on the processing

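Counts of members called in the 2 comparisons of cytokines stayed within 1.5 times of the reported ones under all alternatives: 8 to 14 higher and 26 to 34 lower for cytokines against vehicle (reported 10 and 28), and 6 to 11 higher and 28 to 35 lower for the combination against ML351 (reported 9 and 30). No member called in either comparison reversed its direction. Upper-quartile scaling moved the median of all genes by -0.123 and -0.118 in these comparisons.

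The ML351 counts were not stable. For the combination against cytokines, 2 members were higher, against 4 with DESeq2 and 0 with library totals alone, limma-voom, the replicate block, the acinar covariate or only the groups compared, and 0 to 2 when leaving out 1 library. For the averaged ML351 effect 2 members were higher, against 5 with DESeq2 or a minimum of 5 CPM in 3 libraries, 10 with library totals alone, 1 with RLE factors, without Ins1, Ins2 and Gcg in the totals or with limma-voom, and 0 with the replicate block or the acinar covariate, and 0 to 3 when leaving out 1 library. The causes were not tested. A fit of only the groups compared does not exist for the averaged effect and the interaction. Paralog ratios passed in 11 of 13 pairs with a pseudocount of 0.1 or 2 CPM, 10 with permutation over all 12 libraries, 10 of 12 where both genes reached 5 CPM, and 10 or 11 of 13 without 1 library. Scaling factors were not among these alternatives, since they cancel in a ratio within a library apart from the pseudocount.

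With the replicate number as a block, 11 members were higher and 28 lower in cytokines against vehicle, 7 and 30 in the combination against ML351, and 11 paralog pairs passed. The block ended the calls of Srp14 in both comparisons, of Srpr in the first and of Sec11a and Tmed10 in the second, and added calls for Sec11a, Sec23b and Sec61g in the first and Copa in the second. The labels do not say whether the numbers pair libraries, and 3 libraries per group are too few to settle it. Over 13 same-numbered pairs the correlation of deviations from group means ran from -0.377 to 0.202, with 2 above 0.1. Of 26 best matches, each picked among the 3 libraries of another group, 7 had the same number. Depth limits Srp54b, Sec31b and Sec14l4, the members with the fewest counts.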
